A study of Rattus norvegicus with 96 samples.

Results

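The basolateral amygdala of alcohol naive rats was compared with that of rats with a history of alcohol dependence, on 8 arrays of 96 in the series. The 8 arrays are every array whose label places it in the basolateral amygdala (BLA) of a naive or a dependent rat, 4 in each group, and the comparison was fitted on these arrays alone. Dependent rats had learned to press a lever for alcohol, drank unsweetened 10% alcohol for 4 weeks, were then exposed to intermittent ethanol vapor for 4 weeks, were tested again 6 to 8 hours after leaving the vapor chambers, and were killed 3 weeks after the last vapor exposure. Naive rats were of the same age and were killed alongside them. Nondependent rats had the same training and the same 4 weeks of drinking but no vapor, after which the vapor-exposed rats drank more in the withdrawal tests, per the labels. The 4 nondependent BLA arrays are set beside the comparison without entering it. Because the dependent group differs from the naive group in lever training, drinking and vapor exposure together, these 3 parts of the history cannot be told apart in this comparison. The labels do not give the strain or the sex of the rats on the arrays.

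The BLA is a cortex-like nucleus in which most neurons are glutamatergic projection cells and the rest are mainly GABA interneurons. It attaches emotional value to cues and places, sends its output to the central amygdala, the nucleus accumbens and the prefrontal cortex, and is known for its part in cue-driven alcohol seeking and in the anxiety of withdrawal. Its astrocytes clear glutamate and potassium, and its neurons switch on immediate early genes within minutes to hours of strong activity. At 3 weeks of abstinence acute withdrawal is over, so the comparison asks what differs in this nucleus late after drinking and vapor exposure.

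The measure is the log2 signal of an array probe set after GCRMA, a background correction that uses the base composition of the probes, so a difference of 1 is a doubling. Some markers separated the BLA clearly from the neighbouring central amygdala. In naive rats Slc17a7, which encodes the vesicular glutamate transporter VGLUT1, had a level of 7.22 ± 0.14 (SD, n = 4) in the BLA, against 3.31 ± 0.12 in the central amygdala (n = 4). Neurod6, a transcription factor of cortical-type glutamatergic neurons, had a level of 10.64 ± 0.37 (SD, n = 4) in the BLA and 4.10 ± 0.19 in the central amygdala. Nts, which encodes the neuropeptide neurotensin of the central amygdala, had the opposite order, with 4.85 ± 0.66 (SD, n = 4) in the BLA and 10.31 ± 0.27 in the central amygdala. Th, the dopamine-synthesis enzyme of the midbrain, was at 3.00 ± 0.09 (SD, n = 4) in the BLA. Other markers separated the nuclei less, with naive means of 6.11 in the BLA and 5.69 in the central amygdala for Nrgn. Prkcd was at 4.73 and 5.16, and Drd1 at 7.63 and 6.76. Slc17a7 and Neurod6 do not set the BLA apart from cortex, since the naive medial prefrontal cortex had 11.75 and 10.43.

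The 8 arrays resembled each other closely, and each had a median correlation of 0.990 to 0.991 with the other 7. The bacterial control transcripts added at hybridization separated them into 5 arrays with a mean control level of 9.53 to 9.96 (naive replicates 1, 2 and 4, dependent replicates 2 and 3) and 3 arrays with 7.76 to 8.02 (naive replicate 3, dependent replicates 1 and 4). The exact two-sided permutation test over 70 arrangements gave p = 0.4 for the group difference in these controls, and between 0.2 and 0.743 for the array median and for the 3 prime minus 5 prime signals of Gapdh and beta-actin, where the smallest p the design allows is 0.0286. Since the array classes are crossed with the groups, the differences of the genes most open to it are also given within each class. Nondependent replicate 3 stood apart, with a control level of 10.85 and an array median of 4.04, against 3.82 to 3.89 in the 8 arrays compared, and nondependent means below leave it out.

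No gene passed the threshold for naive against dependent rats. Of 8533 genes with a mean level above 4, limma called 0 (0%) at an adjusted p under 0.05, and the lowest adjusted p was 0.483. A plain pairwise t-statistic with equal variances also called 0. At an unadjusted p under 0.05 there were 505 genes (5.92%), of which 227 (2.66%) were higher and 278 (3.26%) were lower in dependent rats. The 4 naive and the 4 dependent arrays did not overlap for 286 genes (3.35%), 113 with higher values (1.32%) and 173 with lower values (2.03%) in dependent rats. The median difference over all genes was -0.02, and the lower and upper tails of the genes, taken at 1 in 20 on each side, began at -0.29 and 0.27, with a median standard error of 0.133. What follows is therefore given as differences in these 8 rats, by gene and by group. None of the genes named below is a call in the fit of all 8 arrays. Counts in gene lists are to be read beside these shares, and beside 45.8% of all genes with a difference above 0 and 54.2% below.

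The 12 genes with the smallest p among those lower in dependent rats were led by Retsat. Retsat, which encodes retinol saturase, had levels of 6.57, 6.44, 6.02 and 6.45 in naive rats and 5.36, 5.49, 5.25 and 5.75 in dependent rats. Every dependent array lay below every naive array, and the mean was lower by 0.91 (SE 0.149, adjusted p = 0.483, limma), or 0.532 times the naive level. The difference was -1.12 within the arrays of higher and -0.47 within those of lower hybridization controls. Acot1, a thioesterase that frees fatty acids from coenzyme A, was at 6.93, 6.59, 6.57 and 7.17 in naive rats and at 5.89, 5.85, 6.21 and 6.03 in dependent rats, a difference of -0.82 (SE 0.152). Here too the groups did not overlap.

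Agt encodes angiotensinogen, the precursor of angiotensin, which in brain is made mainly by astrocytes. Its levels were 8.56, 7.69, 8.35 and 8.42 in naive rats and 6.72, 7.38, 7.21 and 7.57 in dependent rats, so that the lowest naive array lay just above the highest dependent array. The difference was -1.04 (SE 0.22), with -0.93 within the arrays of higher and -1.20 within those of lower hybridization controls. Hrh1, the histamine H1 receptor, differed by -0.62 (SE 0.108), from 5.06 to 5.43 in naive rats and from 4.60 to 4.78 in dependent rats. Gpr161, an orphan receptor of the primary cilium, differed by -0.62, and Vcam1, an adhesion molecule of vessels and glia, by -0.45. The other 6 were Ivns1abp (-0.51), 6330403K07Rikl (-0.56), Nup35 (-0.57), a nuclear pore protein, Lhfpl3 (-0.58), a gene typical of oligodendrocyte precursors, Marchf1 (-0.65), a ubiquitin ligase, and B3galt5 (-0.55), a galactosyltransferase.

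The 12 genes with the smallest p in the other direction were led by Rgs7bp. Rgs7bp, whose product holds RGS proteins that shut off G protein signaling at the membrane, was at 8.45, 8.35, 8.43 and 8.50 in naive rats and at 8.94, 9.02, 9.42 and 9.27 in dependent rats. The naive arrays lay close together and all dependent arrays lay above them, with a difference of 0.73 (SE 0.121, adjusted p = 0.483, limma), a ratio of 1.66. Ptpn14, a tyrosine phosphatase, was at 5.19, 5.47, 5.24 and 5.17 in naive rats and at 5.60, 6.16, 6.05 and 5.97 in dependent rats, a difference of 0.68 (SE 0.136). Palld encodes palladin, which bundles actin, and was at 5.72, 5.89, 6.30 and 6.12 in naive rats and at 6.88, 6.50, 6.79 and 6.50 in dependent rats, a difference of 0.66 (SE 0.149).

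Mapt, which encodes the microtubule protein tau, differed by 0.37 (SE 0.089), from a naive range of 11.90 to 12.01 to a dependent range of 12.26 to 12.38. Its other probe sets, at means of 10.14 and 9.56, differed by only 0.064 and 0.139. Baiap2, a scaffold of actin-rich postsynaptic sites, differed by 0.40, and Fmnl1, a formin that extends actin filaments, by 0.59. Boc, a surface co-receptor of hedgehog signaling, differed by 0.59. Fem1a (0.51) and Rnf182 (0.49), both parts of ubiquitin ligases, Mrpl36 (0.57), a protein of the mitochondrial ribosome, and Ephx4 (0.56), an epoxide hydrolase, completed the group together with Egr2, described below.

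Of the 24 genes, 23 had groups that did not overlap, and all 24 kept the direction of their difference within the 5 arrays with higher and within the 3 arrays with lower hybridization controls. They were picked for their small p, so neither count is evidence for the list. Of the genes given values here, 22 had further probe sets above the signal filter, 25 in all, and 22 of those differed in the same direction. Some of the 22 differed by almost nothing, such as those of Syn2 (0.015), Plxna4 (0.014) and Camk2g (0.048). The exceptions to the shared direction were second probe sets of Nrxn3 (-0.11), Abca1 (0.10) and Fkbp5 (-0.08).

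**Figure D1:**
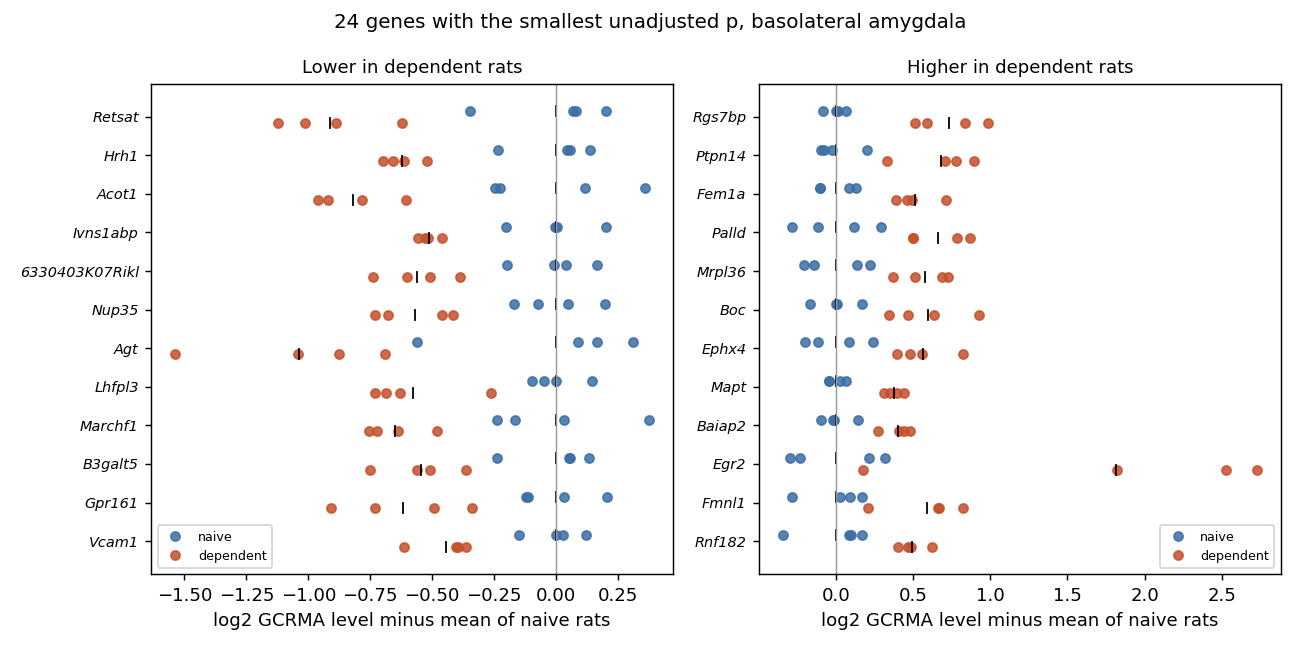
Log2 GCRMA level of each of the 24 genes with the smallest unadjusted p, in each naive (blue) and dependent (orange) array, as the difference from the mean of the 4 naive arrays, with group means as vertical lines. The left panel holds the 12 genes lower and the right panel the 12 genes higher in dependent rats; the groups overlap only for Egr2, in which 1 dependent array lies among the naive arrays.

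Of the tested genes, 10 differed by more than 1 on the log2 scale, and those named here were singled out after their values were seen. Besides Agt and Egr2 they include Ret, the receptor of GDNF-family ligands, which was at 6.10, 5.94, 6.96 and 6.19 in naive rats and at 5.07, 4.89, 4.28 and 5.84 in dependent rats, a difference of -1.28 (SE 0.312) with no overlap. Inhba encodes a subunit of activin, an activity-dependent growth factor, and was at 5.71, 5.50, 6.02 and 6.12 in naive rats and at 6.19, 6.81, 7.88 and 6.73 in dependent rats, a difference of 1.06 (SE 0.303) with no overlap. Its difference was 1.57 within the arrays of higher and 0.44 within those of lower hybridization controls.

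The other large differences rested on scattered arrays. Slc17a6, the vesicular glutamate transporter VGLUT2 of thalamic and other subcortical neurons, was at 9.49, 10.64, 10.09 and 7.50 in naive rats and at 7.30, 5.89, 7.92 and 9.29 in dependent rats, a difference of -1.83 (SE 0.758). Its spread within each group exceeded 3 on the log2 scale. Siglec5, a sialic acid receptor of immune cells, was at 6.00 to 7.21 in naive rats, at 3.89, 4.07 and 3.81 in dependent replicates 1, 2 and 4, and at 7.0 in dependent replicate 3. Without that replicate the difference was -2.57, against -1.80 with all arrays, and Siglec5 was the single call, with an adjusted p of 0.0278 (limma). Leaving out the dependent array that lay among the naive ones separates the groups by construction. The call is therefore not evidence for a difference. With any other array left out Siglec5 was not called. Pex5l (1.03), Abca1 (-1.13) and Grm5 (1.30), the metabotropic glutamate receptor mGluR5, had groups that overlapped.

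Immediate early genes, transcription factors and signaling genes that neurons induce with activity, were on the whole higher in dependent rats. Of 16 members above the filter, 14 had a difference above 0, where the share over all genes tested was 45.8%, and 2 had one below 0. Their median difference was 0.31, against -0.02 for all genes. At an unadjusted p under 0.05 there were 5 members higher and 0 lower, beside 2.66% and 3.26% of all genes, and 0 passed the adjusted threshold. The 5 were Egr2, Egr1, Egr4, Nr4a2 and Ier5. Of these, Egr4 passed the filter only through the dependent arrays, with means of 3.85 in naive and 4.18 in dependent rats. Its place in the count is therefore not evidence.

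Egr2, a zinc finger transcription factor, was at 5.86, 6.37, 5.93 and 6.48 in naive rats and at 7.99, 6.34, 8.89 and 8.69 in dependent rats. Dependent replicate 2 lay among the naive arrays and the other 3 dependent arrays lay well above every naive array. The difference was 1.82 (SE 0.467, adjusted p = 0.736, limma), a ratio of 3.52, and it was 1.37 within the arrays of higher and 2.41 within those of lower hybridization controls. A second Egr2 probe set, at a mean of 2.78 and so below the filter, differed by -0.11, and the mean of both probe sets differed by 0.852. Without dependent replicate 2 the difference was 2.361 and Egr2 was the single gene called, with an adjusted p of 0.0255 (limma). Since that array is the one among the naive arrays, leaving it out separates the groups by construction. The call is therefore not evidence for a difference. With any other array left out Egr2 was not called. The difference was 1.511 without dependent replicate 3 (adjusted p = 0.971, limma) and 1.577 without dependent replicate 4. Without naive replicate 4 it was 1.922 (adjusted p = 0.98, limma). Dependent replicate 2 was also low for Fos. Fos was at 7.13, 7.09, 8.16 and 8.14 in naive rats and at 9.97, 6.82, 9.08 and 9.95 in dependent rats. Its difference was 1.33 (SE 0.617), with 0.50 within the arrays of higher and 1.80 within those of lower hybridization controls.

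Egr1 is a close relative of Egr2 with a high resting level in forebrain. It was at 11.81, 11.84, 11.99 and 11.99 in naive rats and at 12.19, 12.11, 12.40 and 12.31 in dependent rats, so that the groups did not overlap, with a difference of 0.35 (SE 0.104). Egr4, at the edge of the filter, differed by 0.33 with no overlap. Its second probe set, at a mean of 2.75 and so below the filter, differed by 0.032. Nr4a2, a nuclear receptor, differed by 0.45 with overlap. The mean level of the whole list of 22 genes was 6.23 to 6.40 in naive rats and 6.36, 6.66, 6.77 and 6.81 in dependent rats, the 6.36 again in dependent replicate 2. With each array left out in turn, the median difference of the list ran from 0.28 to 0.36 and the number of members higher at p under 0.05 from 3 to 6.

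The upstream sequence of Egr2 is shown because the gene had the largest difference among those higher in dependent rats and its regulation by activity is well known. Serum response factor binds the CArG box and CREB binds the cAMP response element, and both relay calcium and kinase signals to immediate early genes. The sequence below is the 250 bases before the start of Egr2 in RefSeq on GRCr8, chr20:21054442-21054691 on the minus strand, 5′ to 3′, with a CArG box in capitals whose first base lies 83 bases before the start.
Egr2: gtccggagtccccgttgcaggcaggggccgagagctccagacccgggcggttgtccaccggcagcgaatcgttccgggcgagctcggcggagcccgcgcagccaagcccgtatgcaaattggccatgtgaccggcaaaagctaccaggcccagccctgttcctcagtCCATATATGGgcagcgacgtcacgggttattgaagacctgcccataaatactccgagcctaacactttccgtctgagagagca

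A CArG box was searched on both strands of the window from 250 bases before to 50 after each start and was found in 451 of 27457 promoters (1.64%). It was in 1 of the 21 leading genes with a promoter in the table, Egr2, and in 2 of 19 immediate early genes, Egr1 and Egr2. The cAMP response element TGACGTCA was in 525 promoters (1.91%), in 0 of the 21 leading genes and in 4 of the 19 immediate early genes, namely Btg2, Dusp1, Ier2 and Jund. The glucocorticoid response element, read as AGAACA, any 3 bases and TGTTC, was in 10 promoters (0.0364%) and in 0 of either group. These matches describe the letters in the window and nothing about occupancy. The CArG box was chosen for search after the values of the Egr genes were seen.

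**Figure D2:**
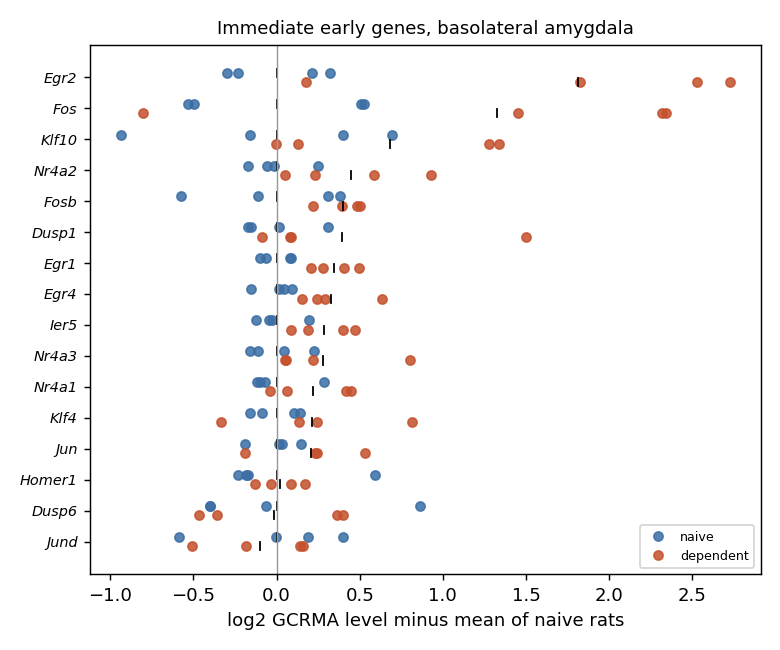
Log2 GCRMA level of the 16 immediate early genes above the signal filter in each naive (blue) and dependent (orange) array, as the difference from the mean of the 4 naive arrays, with group means as vertical lines. Egr2 and Fos have the widest spread, and dependent replicate 2 lies among the naive arrays for Egr2 and below them for Fos.

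Markers of astrocytes were lower in dependent rats in nearly every case. Of 15 members above the filter, 14 had a difference below 0, where the share over all genes was 54.2%, and the median was -0.25. Agt, Slc4a4 and Glul were lower at an unadjusted p under 0.05 and 0 were higher, beside 3.26% and 2.66% of all genes. Slc4a4, a sodium bicarbonate cotransporter, was at 11.48, 11.37, 11.38 and 11.53 in naive rats and at 11.13, 11.19, 10.78 and 11.06 in dependent rats, a difference of -0.40 (SE 0.113) with no overlap. Glul, the glutamine synthetase that converts glutamate to glutamine, differed by -0.25 and Gjb6, the connexin 30 of astrocyte gap junctions, by -0.26, both with overlap.

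Gfap, the intermediate filament, was at 7.32 to 8.21 in naive rats and at 7.57 to 8.28 in dependent rats, a difference of 0.04 (SE 0.202). Aqp4, the water channel of astrocyte endfeet, differed by -0.14 (SE 0.097), and its other 2 probe sets by -0.36 and -0.16. The mean level of the 16 astrocyte genes was 10.26 to 10.67 in naive rats and 10.15 to 10.39 in dependent rats, so the groups overlapped. The median of the list was -0.15 without naive replicate 4 and -0.16 with the class of hybridization controls as a block. In tissue arrays, fewer astrocytes and less RNA per astrocyte cannot be told apart.

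Myelin and oligodendrocyte genes had a median difference of -0.23, with 11 of 13 below 0, and 1 was lower at an unadjusted p under 0.05. That was Tspan2, a tetraspanin of myelin, with a difference of -0.48 (SE 0.194). This list leaned on few arrays: its median was -0.05 without naive replicate 4 and -0.35 without dependent replicate 2, and -0.12 with the class of hybridization controls as a block. Of 7 oligodendrocyte precursor markers 6 were below 0, with Lhfpl3 the only one at p under 0.05. Of 8 microglia and macrophage markers 6 were below 0, with a median of -0.20 and 0 members at p under 0.05, and their median was -0.09 without dependent replicate 1 and -0.33 without naive replicate 2. Aif1, a calcium-binding protein of microglia, differed by -0.42 (SE 0.192) and P2ry12, a purine receptor of resting microglia, by -0.31 (SE 0.189).

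Vessel, blood, meningeal and choroid plexus markers held 1 gene at an unadjusted p under 0.05. That was Ptprc, the leukocyte phosphatase CD45, 1 of 4 blood cell genes, at 5.86, 5.13, 5.59 and 5.32 in naive rats and at 4.97, 5.19, 4.95 and 5.10 in dependent rats, a difference of -0.42 (SE 0.155) with overlap. Among 8 endothelial and mural markers the median was -0.10, among 4 blood cell genes -0.09 and among 5 meningeal markers 0.06. Only 1 choroid plexus marker passed the filter, and the mean level of the 9 genes of that list was 3.22 to 3.35 in naive rats and 3.21 to 3.30 in dependent rats, near the floor of the signal.

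Markers of the BLA's own glutamatergic neurons were higher in dependent rats on average. Of 12 members 9 were above 0, beside 45.8% of all genes, with a median of 0.14, and 3 were higher at an unadjusted p under 0.05, beside 2.66%. Slc17a7 was at 7.24, 7.38, 7.04 and 7.22 in naive rats and at 7.26, 7.70, 7.64 and 8.69 in dependent rats, a difference of 0.60 (SE 0.254) in which dependent replicate 4 stood highest and dependent replicate 1 lay among the naive arrays. Neurod6 was at 10.88, 10.99, 10.49 and 10.18 in naive rats and at 11.14, 10.84, 10.94 and 11.38 in dependent rats, a difference of 0.44 (SE 0.188). Ppp1r1a, an inhibitor of protein phosphatase 1, differed by 0.54 (SE 0.228) with no overlap. None of the 3 remained at p under 0.05 without naive replicate 3 or without naive replicate 4, and without naive replicate 3 there was 1 member lower.

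Markers of neighbouring nuclei differed in either direction, and their part in the results was not tested. Of 11 central amygdala neuron markers 9 were below 0, with a median of -0.10. Nts was at 4.23, 4.50, 5.74 and 4.92 in naive rats and at 3.77, 3.09, 5.31 and 3.83 in dependent rats, and Pdyn, the precursor of dynorphins, differed by -0.45 (SE 0.383). Of 9 striatal medium spiny neuron markers 7 were above 0, with a median of 0.23. Pde10a, a striatal phosphodiesterase, differed by 0.38 (SE 0.123) with no overlap, and its highest array, dependent replicate 3, also had the highest mean of the striatal list, 6.75, against 6.21 to 6.47 in naive rats.

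Among 11 GABA interneuron markers 7 were above 0 and 4 below, with a median of 0.04. Calb2, which encodes calretinin, was at 8.52, 9.11, 8.23 and 8.46 in naive rats and at 7.43, 7.42, 8.27 and 8.47 in dependent rats, a difference of -0.68 (SE 0.27) carried by dependent replicates 1 and 2. Vip, the peptide of another interneuron class, differed by 0.50 (SE 0.266). Slc32a1, the vesicular GABA transporter, differed by -0.44 (SE 0.233) and Gad2, a GABA-synthesis enzyme, by -0.43 (SE 0.283), with overlap in each.

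**Figure D3:**
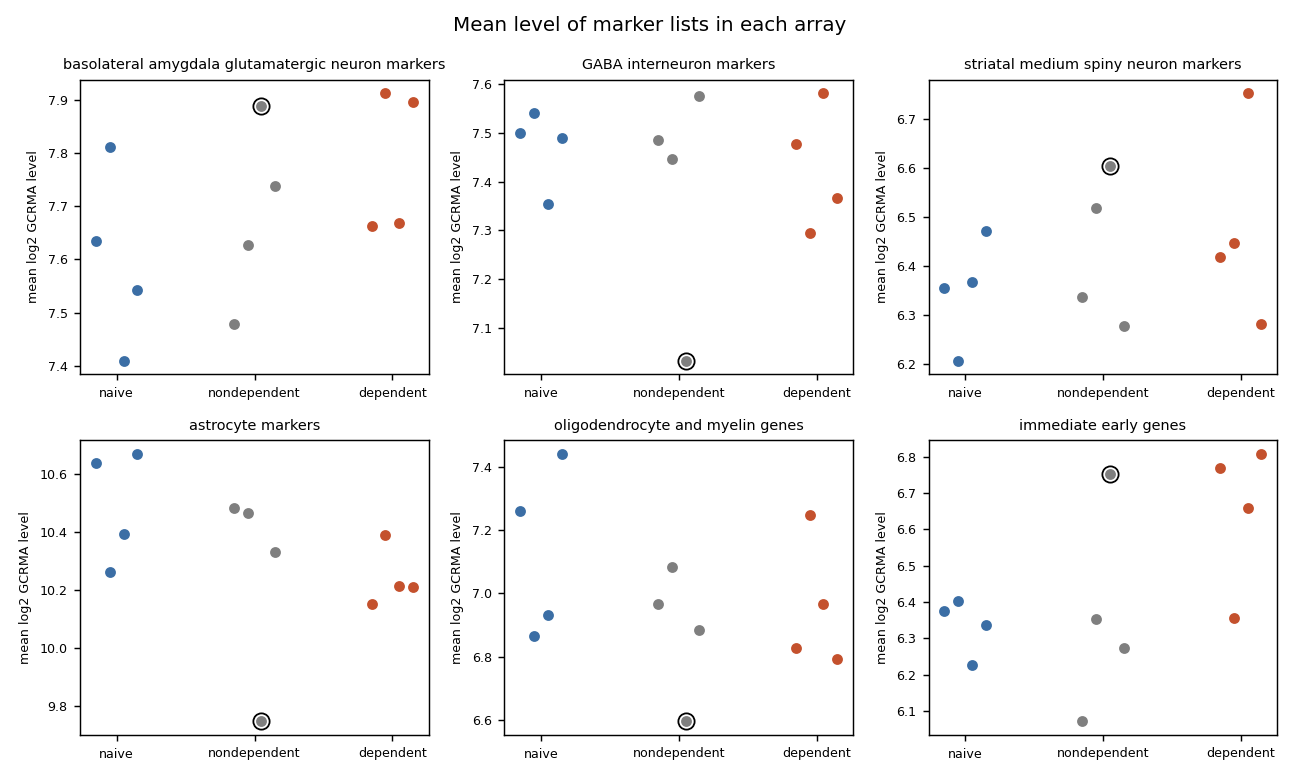
Mean log2 GCRMA level of 6 marker lists in each array, for naive (blue), nondependent (grey) and dependent (orange) rats, with nondependent replicate 3 ringed. Astrocyte levels reach from 10.26 to 10.67 in naive rats and from 10.15 to 10.39 in dependent rats, while 3 of 4 dependent arrays lie above every naive array for immediate early genes.

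Genes of ethanol and aldehyde metabolism, which oxidize ethanol, acetaldehyde and other aldehydes or protect against oxidants, were lower by small amounts. Of 20 members 18 were below 0, beside 54.2% of all genes, with a median of -0.09. Of these 3 were lower at an unadjusted p under 0.05, beside 3.26% of all genes. Aldh6a1, a mitochondrial dehydrogenase of valine breakdown, was at 10.53, 10.35, 10.67 and 10.72 in naive rats and at 9.92, 10.27, 10.23 and 10.13 in dependent rats, a difference of -0.43 (SE 0.12) with no overlap. Adh5, which oxidizes glutathione-bound formaldehyde, was at 10.57 to 10.87 in naive rats and 10.33 to 10.55 in dependent rats, a difference of -0.26 (SE 0.106) with no overlap. Acss1, the mitochondrial acetyl-CoA synthetase that uses the acetate made from ethanol, differed by -0.36 (SE 0.155). The mean level of the list was 7.05 to 7.20 in naive rats and 7.003 to 7.05 in dependent rats, and astrocyte markers had a median of -0.25 over the same arrays, whose part in these values was not tested.

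The glucocorticoid receptor, a nuclear receptor for the stress hormone corticosterone, differed by less than its spread between rats. Nr3c1 was at 10.69, 10.83, 10.88 and 10.73 in naive rats and at 10.98, 10.69, 10.73 and 10.95 in dependent rats, a difference of 0.06 (SE 0.106). Nr3c2, the mineralocorticoid receptor, differed by -0.16 (SE 0.133), and Fkbp5, a glucocorticoid-induced chaperone that damps the receptor, by 0.10 (SE 0.12). Of 13 glucocorticoid-induced genes 9 were above 0, with a median of 0.06, and 1, Glul, was lower at an unadjusted p under 0.05. Among 14 genes that the study itself named around the glucocorticoid receptor, a list drawn partly from these arrays, 2 were higher at p under 0.05, Cdk5 (0.35, SE 0.122, no overlap) and Nfkb1 (0.35, SE 0.138). Of all genes tested, 2.66% were higher at that threshold.

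Stress and opioid peptide genes ran from -0.85 for Nts (SE 0.447, with overlap) to 0.87 for Sstr2. Sstr2, a receptor of the inhibitory peptide somatostatin, was at 8.08, 8.25, 7.75 and 7.18 in naive rats and at 8.56, 8.25, 8.93 and 9.01 in dependent rats, a difference of 0.87 (SE 0.241) with dependent replicate 2 level with the highest naive array. It was the only one of 15 members at an unadjusted p under 0.05. Npy, neuropeptide Y, an anxiolytic peptide of interneurons, differed by 0.04 (SE 0.315), and its receptor Npy1r by 0.16 (SE 0.309). Crh, corticotropin-releasing hormone, lay below the filter, at 3.62 to 3.99 in naive rats and 3.55 to 4.45 in dependent rats.

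Receptors for GABA and glutamate held 0 members at an unadjusted p under 0.05 among 16 and 26 tested. The median was -0.09 for GABA receptor and metabolism genes and 0.04 for glutamate receptors and scaffolds. The first list ran from -0.44, for Slc32a1, to 0.21. The second ran from -0.28 to 1.30, the latter for Grm5, whose groups overlapped. Gabra5 differed by -0.23 (SE 0.129), Gabrg1 by -0.13 (SE 0.219), Grin2a by 0.28 (SE 0.129) and Grik2 by -0.28 (SE 0.133).

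Genes of excitability and release held members higher at an unadjusted p under 0.05 about as often as all genes, of which 2.66% were. They were 1 of 27 potassium channel genes, 0 of 14 calcium channel genes and pumps and 1 of 26 synaptic vesicle genes. Kcna1, a voltage-gated potassium channel of axons, differed by 0.35 (SE 0.132), and 18 of 27 potassium channel genes were above 0 with a median of 0.12. Of 14 calcium channel genes and pumps 11 were above 0, with a median of 0.07. Syn2, a synapsin that tethers synaptic vesicles, was at 11.36 to 11.64 in naive rats and 11.67 to 12.14 in dependent rats, a difference of 0.35 (SE 0.122), and was the synaptic vesicle gene at p under 0.05. Among 37 genes of cAMP, calcium and kinase signaling, Camk4 (0.38) and Camk2g (0.45) were higher and Camk2d (-0.28) was lower at p under 0.05, while the other higher member was Pde10a.

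Growth, wiring and inflammatory genes are given with their counts at an unadjusted p under 0.05. Of 39 cell adhesion and axon guidance genes 4 were higher and 2 lower. Of 16 inflammatory genes 2 were higher and 0 lower, and of 17 growth factor genes 1 was higher and 0 lower. Of all genes, 2.66% were higher and 3.26% lower. Lingo1, an inhibitory receptor of myelination and axon growth, differed by 0.34 (SE 0.112) with no overlap, Plxna4 and Nrxn3, receptors of axon guidance and synapse formation, by 0.40 and 0.43 with overlap, and Sema3c, a secreted guidance cue, by -0.44 (SE 0.154) with no overlap. Ntrk3, the receptor of neurotrophin 3, differed by 0.31 (SE 0.132), and Bdnf, the activity-dependent neurotrophin, by 0.51 (SE 0.35). Ptgs2, the inducible cyclooxygenase of excitatory neurons, was at 10.03, 10.96, 10.48 and 9.37 in naive rats and at 10.50 in dependent replicate 2, with the other 3 dependent arrays between 11.002 and 11.05, a difference of 0.69 (SE 0.291).

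Of 45 chromatin genes 2 had an unadjusted p under 0.05, Dnmt3a and Tet2, beside 5.92% of all genes. Dnmt3a, which adds methyl groups to DNA, was at 5.85, 6.24, 6.25 and 6.04 in naive rats and at 6.54, 6.26, 6.71 and 6.60 in dependent rats, a difference of 0.43 (SE 0.133) with no overlap. Tet2, which oxidizes them, was at 5.89, 5.87, 6.06 and 6.14 in naive rats and at 5.83, 5.48, 5.67 and 5.63 in dependent rats, a difference of -0.34 (SE 0.113) with no overlap. The 45 chromatin genes together had a median of 0.04, with 26 above and 19 below 0.

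RNA splicing genes leaned lower, with 30 of 40 below 0, beside 54.2% of all genes, and a median of -0.12. At an unadjusted p under 0.05, 3 of the 40 were lower and 2 higher, beside 3.26% and 2.66% of all genes. Srsf1, a splicing activator, differed by -0.30 (SE 0.103) with no overlap and Clk1, a kinase of splicing factors, by -0.33, whereas the neuronal splicing regulators Rbfox2 (0.44) and Rbfox3 (0.31) were higher at p under 0.05. The clock genes Nr1d2 (-0.27, no overlap) and Cry1 (-0.38) were the 2 of 14 at p under 0.05, beside 5.92% of all genes. The large families stayed near the median of all genes, at -0.03 for 79 oxidative phosphorylation genes and -0.05 for 41 cytosolic ribosomal protein genes. Heat shock genes had a median of 0.06 and endoplasmic reticulum chaperones -0.08, in the latter with Pdia3 (-0.29, SE 0.104), a disulfide isomerase, at p under 0.05.

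**Figure D4:**
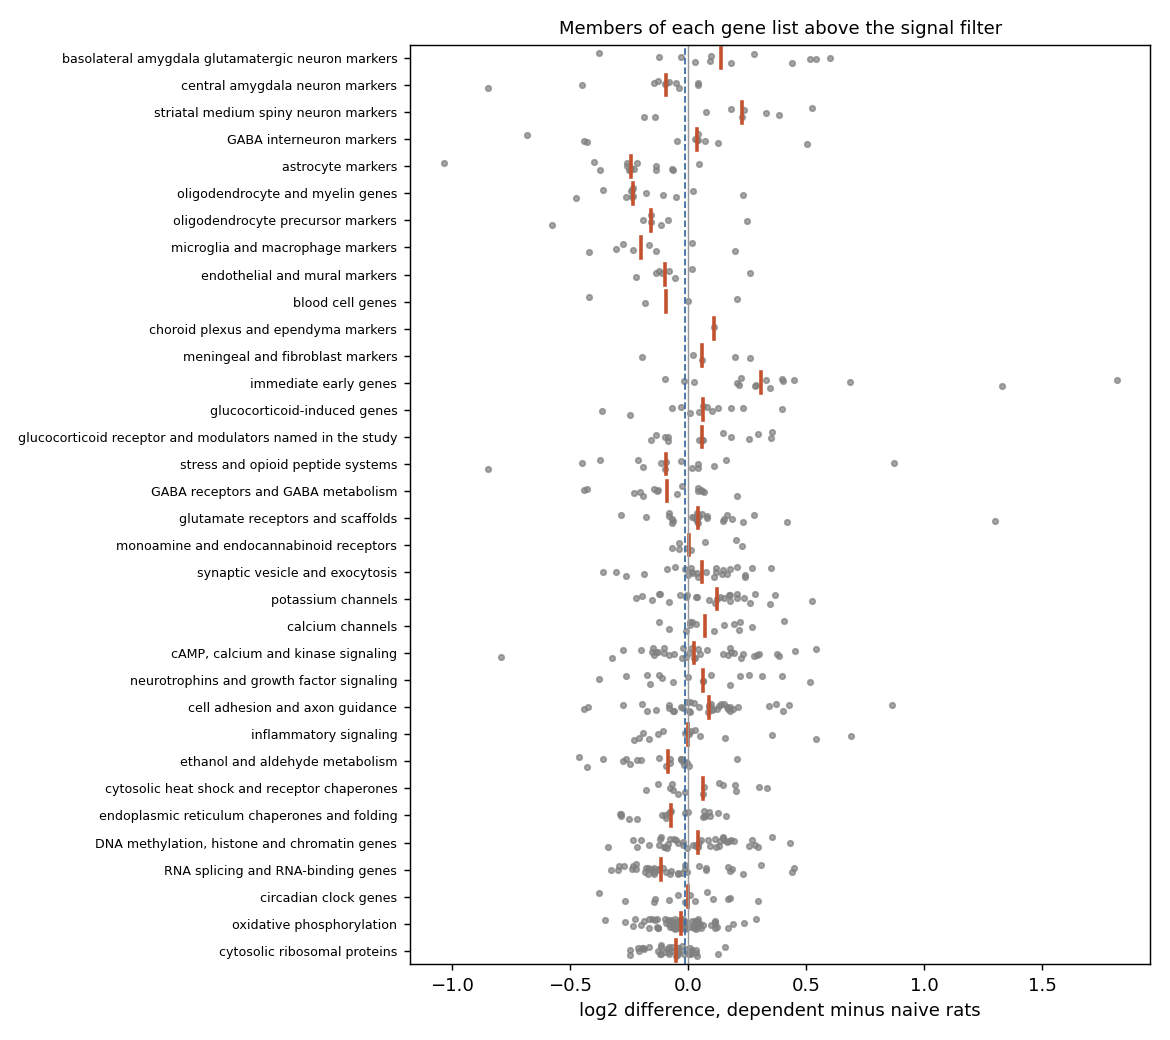
Log2 difference, dependent minus naive rats, of each member of 34 gene lists that passed the signal filter (grey points), with the median of each list (orange) and the median of all 8533 genes, -0.02 (dashed blue). Immediate early genes lie farthest to the right, at a median of 0.31, and astrocyte markers farthest to the left, at -0.25.

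The nondependent rats, which drank without vapor, are set beside these values as a description, since they share the naive arrays with the main comparison. For 20 of the 24 leading genes their mean without replicate 3 lay between the naive and dependent means. It lay beyond the dependent mean for Acot1 (5.99) and Lhfpl3 (8.52), and beyond the naive mean, on the side away from the dependent rats, for Gpr161 (6.76) and Ephx4 (7.49). The 24 genes were picked for the gap between naive and dependent rats, which by itself favours a mean in between. The share over all genes was not computed, so the count is not read as a graded response. For Egr2 the nondependent mean was 6.26, against 6.16 in naive and 7.98 in dependent rats. For Fos it was 7.06, against 7.63 in naive and 8.96 in dependent rats. For Retsat it was 5.86, against 6.37 and 5.46, and for Agt 7.94, against 8.26 and 7.22.

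The same genes were then read in the other 7 regions, each with its own naive and dependent arrays but taken from the same 4 rats per group, so that a shared direction is not independent. Egr2 was higher in dependent rats in the central amygdala (1.10), the nucleus accumbens core (1.33) and shell (1.14), the medial prefrontal cortex (0.997), and the dorsolateral (0.83) and ventral (0.46) bed nucleus of the stria terminalis, and differed by -0.03 in the ventral tegmental area. Retsat was lower in all 7, from -0.82 in the medial prefrontal cortex to -0.14 in the nucleus accumbens shell. Agt differed by -0.70 in the central amygdala and -0.77 in the medial prefrontal cortex, by -0.51 in the accumbens shell, -0.35 in the dorsolateral bed nucleus and -0.08 in the ventral tegmental area, and by 0.06 and 0.36 in the accumbens core and ventral bed nucleus. The number of the 24 genes with the BLA's direction was 21 in the central amygdala, where 61.0% of all genes shared it, 20 in the ventral bed nucleus (59.4%), 19 in the accumbens shell (53.9%), and 15 in each of the accumbens core, the medial prefrontal cortex and the ventral tegmental area (48.3%, 54.1% and 53.3%), with 17 in the dorsolateral bed nucleus (52.6%).

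Whether the change differed between regions was tested against the central amygdala and the medial prefrontal cortex, each with 16 arrays in 1 model. The model treated the arrays as independent, although the regions came from the same rats. Against the central amygdala, 0 of 8603 genes passed the adjusted threshold in limma and 219 (2.55%) had an unadjusted p under 0.05. The leading examples were Lhfpl3, whose difference was -0.58 in the BLA and 0.05 in the central amygdala (a gap of -0.63, SE 0.154), and Mrpl36, at 0.57 and -0.07. Against the medial prefrontal cortex, 0 of 8882 passed and 840 (9.46%) had an unadjusted p under 0.05, and 69 were called when arrays were weighted by their quality. Acot1 was at -0.82 in the BLA and 0.27 in the cortex, a gap of -1.09 (SE 0.226, adjusted p = 0.278, limma), and Ivns1abp at -0.51 and 0.29. Both were among the 69, with adjusted p of 0.0409 and 0.0239 (limma), and so was Hrh1 with 0.0452. For Ncl, which encodes nucleolin, the gap of 1.89 came from the cortex, at -1.95, and not from the BLA, at -0.06. With arrays unweighted, no gene's difference was shown to differ between the BLA and either region.

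**Figure D5:**
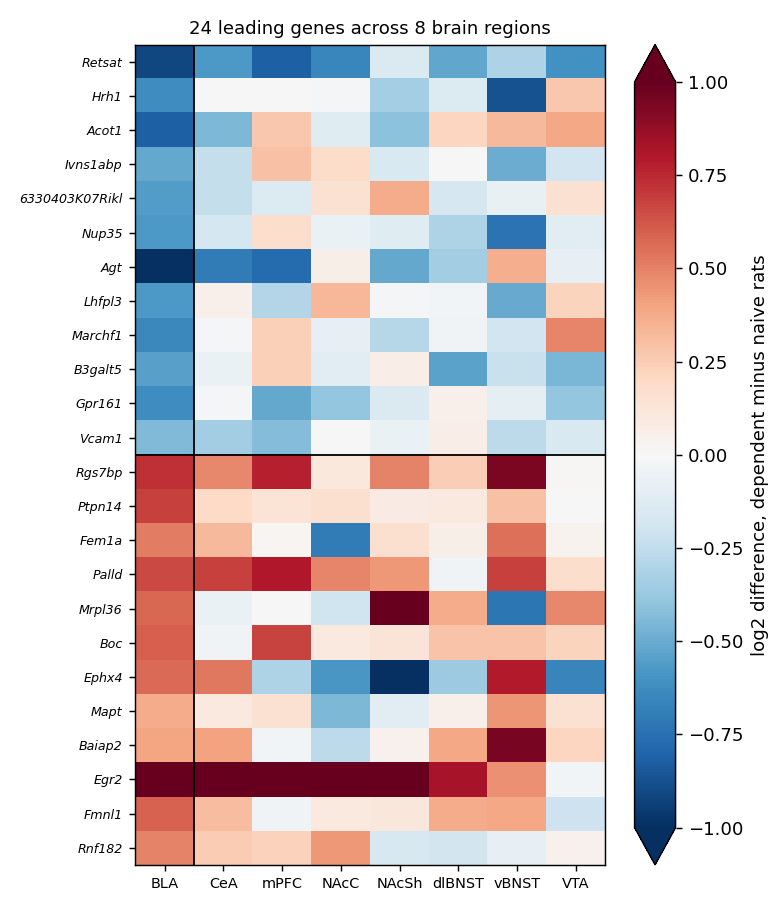
Log2 difference, dependent minus naive rats, of the 24 leading genes of the basolateral amygdala (BLA) in 8 regions, with blue for lower and red for higher and the scale capped at 1 in either direction. CeA is the central amygdala, mPFC the medial prefrontal cortex, NAcC and NAcSh the accumbens core and shell, dlBNST and vBNST the dorsolateral and ventral bed nucleus, and VTA the ventral tegmental area; the BLA column chose the genes, and Retsat is blue in every region.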

How the data were processed

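RNA from microdissected BLA was amplified from 30 or 50 ng and hybridized to Affymetrix rat expression arrays. The deposited values are log2 signals that the authors computed with GCRMA 2.36.0 under R 3.03, per the labels, over 96 arrays. Background correction acts most on low signals, so the size of differences near a level of 4 is uncertain and may be understated or overstated.

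Of 31099 probe sets, 20832 named 1 gene, 436 several and 9831 none, in the platform annotation. Where a gene had several, the probe set brightest on average across all 96 arrays stood for it, giving 14218 genes, and genes with a mean above 4 over the 8 arrays were tested with limma 3.58.1 in R 4.3.3 (lmFit and eBayes, Benjamini-Hochberg over all tested genes, threshold 0.05). The fit held no covariate. Named genes were the 12 with the smallest p in each direction, up to 4 with the smallest p in each gene list, 10 genes of stress and drinking research and up to 4 per direction for each region interaction; others named are said to be chosen after their values were seen, and so were Ier5, Fos, Gfap and Aqp4. The members and lists were chosen with earlier results of these data known. The analysis was tested on simulated data. Alternatives covered the filter, normalization, probe set choice, arrays in the fit, weights, prior, the replicate number as a block and leaving out each array. The number of arrays limits the precision. Each array is 1 rat of the study's 4 per group. Figures were drawn with matplotlib 3.10.9.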

Additional observations from a re-analysis of the deposited data

Results flagged for a closer look

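In 260 groups of 4 arrays, 10 had 1 array whose gap to its nearest neighbour was above Dixon's critical share of the range, where chance flags about 1 in 20 groups. In naive rats these were the low Aif1 level of replicate 2 (7.64, with the others up to 8.33), the low Glul of replicate 3 (12.78), the low Rnf182 of replicate 1 (8.66, with the highest at 9.17), and the high means of the GABA gene list (8.01) and the potassium channel list (6.19) in replicate 2. In dependent rats they were the high Pde10a (10.65), Pdyn (6.98) and Siglec5 (7.0) levels of replicate 3, the low Ptgs2 of replicate 2 (10.50) and the low Vcam1 of replicate 4 (9.03).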

How the results depend on the processing

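The count of 0 genes called in the BLA held under every alternative run except leaving out dependent replicate 2 or 3, with counts from 0 to 1. The number of genes higher at an unadjusted p under 0.05 (227) was 414 over all probe sets and 68 with all 12 BLA arrays, and ran from 125 without dependent replicate 4 to 299 without naive replicate 2. The number lower (278) was 436 with no filter, 59 with all 12 arrays and 174 with the replicate block, and ran from 211 to 427, the highest without naive replicate 2. With all 12 arrays nondependent replicate 3 enters the spread, and without it, over 11 arrays, the counts were 221 and 290. Naive and dependent arrays are of different rats. For deviations from the group means, same-numbered arrays of the 2 groups had correlations of -0.197, -0.256, -0.178 and -0.261. Differently numbered arrays ran from -0.262 to 0.328. Deviations from means of 4 arrays cannot decide whether the numbers mark a shared factor, and the replicate block called 0 genes. Quantile normalization turned the split of these genes from 227 higher and 278 lower to 272 and 237. Against the medial prefrontal cortex, array weights gave 69 calls in place of 0, while the replicate block across both regions called 0 in either interaction; the cause was not tested.

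Of 91 tested genes given values, Ncl aside, 84 kept their direction under every alternative run. Several alternatives, such as another filter, another prior, the replicate block or added nondependent arrays, leave the difference itself unchanged. Many of the genes were also picked for a small p, so this count is not evidence for them. Averaging all probe sets of a gene, those below the filter included, made the difference smaller by over 1.5 times for 31 of 87 genes, for example 0.587 for Inhba, 0.634 for Fos, 0.712 for Grm5 and -0.361 for Abca1. Gfap was -0.102 with array weights, -0.01 with the class of hybridization controls as a block and -0.143 within the arrays with higher controls. With 1 array left out, differences ran from -0.11 to 0.187 for Gfap, -0.314 to 0.101 for Gabrg1, -0.235 to 0.3 for Npy and -0.05 to 0.437 for Npy1r. Within the arrays with lower controls Gabrg1 was 0.039, Npy -0.363, Npy1r -0.017 and Fkbp5 -0.029, and within those with higher controls Nr3c1 was -0.038 and Grm5 -0.28. The comparisons by class of hybridization controls and the changes of list medians were added after the data were seen. The median standard error of 0.133 limits what could be told apart, and the 5685 genes below the signal filter carry no measure of change.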
